A study of Mus musculus with 3 samples.

Results

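Hedgehog signalling is described here through 9 genes, chosen by name, in cells of the mouse superior cervical ganglion, a sympathetic ganglion of the neck, that were sorted for a fluorescent reporter. They were the ligand gene Dhh, the receptor gene Ptch1, the genes of the ligand-binding proteins Hhip, Boc and Gas1, the transducer gene Smo, and the transcription factor genes Gli1, Gli2 and Gli3, 9 of 52550 genes in the deposited table, all of them listed there. The only group, LepR_SCG, held 3 biological replicates of live cells from male mice of genotype LepRCRE::Ai32 aged 10 weeks, which the labels call LepR+ and the series title calls perineurial. The Cre is driven from the leptin receptor gene (Lepr) and Ai32 is a reporter that stays on once Cre has acted, so it also marks cells that made the receptor earlier in life; the protocol text names the mice LepReYFP instead. The labels do not say how many cells or animals a library was made from, and with 1 group there was no comparison between conditions.

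Hedgehog ligands are secreted, lipid-modified proteins. Without ligand, Patched holds Smoothened inactive; with ligand, Smoothened acts through the primary cilium and the Gli proteins turn on target genes, Ptch1, Gli1 and Hhip commonly among them. In peripheral nerve, Desert hedgehog from Schwann cells is the signal by which the perineurium, the layered barrier around nerve bundles, forms. The series title names these cells as perineurial, so both the ligand and the receiving side were of interest in them.

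Values are TPM, a level per gene length and relative to the library total, from which whole reads were recovered as described under the processing. The libraries held 8236735, 8037419 and 7721631 reads on genes for replicates 1, 2 and 3, and 27396 genes had a read in at least 1 of them. Lepr had 363, 32.1 and 54.0 TPM in replicates 1, 2 and 3. The summed level of 12 satellite and Schwann glia markers ran from 29853 to 34583 TPM over the libraries, with Fabp7 highest and Ngfr lowest, against 416 to 731 TPM for 15 perineurial markers, with Cldn1 highest and Krt19 without a read. Single genes weighed heavily in both sums, Fabp7 with 13012 to 16339 TPM and Cldn1 with 216 to 246 TPM. At least 1 TPM in every library was reached by 10 of the 12 glial and 6 of the 15 perineurial markers. Of 8 markers of myelinating Schwann cells, which summed to 1869.5 to 2177 TPM, Pmp22 was highest and Mag lowest, and 4 reached 1 TPM in every library. Fibroblast markers (6 of 6 at 1 TPM or more in every library) summed to 4463 to 6613 TPM and endothelial markers (6 of 6) to 295 to 346 TPM. Mural markers (5 of 6) summed to 134 to 496 TPM, sympathetic neuron markers (2 of 6) to 111 to 307 TPM and macrophage markers (0 of 6) to 1.08 to 101 TPM. Markers of several cell types were thus read in every library. In such bulk samples fewer cells of a type and less RNA per cell cannot be told apart, nor can it be told whether 2 genes were read from the same cells.

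The promoters of Dhh and Ptch1 are shown because these were the 2 of the 9 genes called above 1 TPM. Both are the 250 bases before the RefSeq start site on build GRCm38.p6, 5′ to 3′ on the gene's strand (minus for both), with each CG pair in capitals. The RefSeq start of Ptch1 lies inside the locus given below for GENCODE M21, not at its outer end.
Dhh, chr15:98898541-98898790: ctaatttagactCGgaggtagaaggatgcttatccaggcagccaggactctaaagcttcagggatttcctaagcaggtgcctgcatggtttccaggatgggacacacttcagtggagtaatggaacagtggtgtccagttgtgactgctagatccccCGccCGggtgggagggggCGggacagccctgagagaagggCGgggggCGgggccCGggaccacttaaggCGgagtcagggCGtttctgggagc
Ptch1, chr13:63565736-63565985: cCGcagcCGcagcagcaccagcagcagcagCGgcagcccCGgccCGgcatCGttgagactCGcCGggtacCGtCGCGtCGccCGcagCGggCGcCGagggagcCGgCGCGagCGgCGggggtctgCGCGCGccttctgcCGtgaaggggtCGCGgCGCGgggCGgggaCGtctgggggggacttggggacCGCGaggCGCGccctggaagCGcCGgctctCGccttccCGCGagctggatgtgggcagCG

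The Dhh window held 9 CG pairs and was 59.6% G and C, and the Ptch1 window held 41 and was 78.4%. Over the 32851 promoters of the RefSeq table the median was 6 CG pairs, and 98.9% of them had fewer than Ptch1. RefSeq promoters were matched by symbol for 7 of the 9 genes, Gli1 and Boc not among them, and all 7 were above that median, with 9 to 41 CG pairs. The GLI consensus GACCACCCA, searched on both strands, was in none of the 7 windows and in 0.225% of all promoters. Its core CCACCC, part of the consensus, was in the windows of Dhh, Gli2, Gli3, Hhip and Smo and in 28.1% of all promoters. The letters ACAAAG, a core bound by SOX factors, were in none of the 7 and in 16.5% of all. A match or its lack describes these letters in this window only.

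Dhh encodes the ligand, Desert hedgehog. It had 77.7, 45.2 and 65.1 TPM in replicates 1, 2 and 3, from 469, 273 and 368 reads. All 3 libraries held it at a like level, the highest 1.72 times the lowest, and its mean of 62.7 ± 16.4 TPM (SD, n = 3) put it among the top 10.1% of genes with a read. In log2(TPM + 1) this was 4.96 ± 0.23 (SE) above 1 TPM, in 3 of 3 libraries (limma, adjusted p = 0.00436). GENCODE M21 holds another version of the gene than the deposited ENSMUSG00000023000.4, and places it on chromosome 15, 98891152 to 98898540 on the minus strand of GRCm38. The deposited values imply a gene model of 2363 exonic bases, whereas the M21 model has 4399, of which 546 overlap exons of Rhebl1 on the same strand and 1107 those of the antisense gene Gm49442. Rhebl1 had 0, 194 and 1 reads, so its 1 high library, replicate 2, was the lowest for Dhh. Whether shared bases took part in the Dhh value was not tested.

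The other hedgehog ligands were at or near the limit of detection. Shh, the ligand of limb and neural tube patterning, had no read in any library, where 3 reads would be 0.412, 0.412 and 0.440 TPM in replicates 1, 2 and 3, and Dhh was at least 188-fold, 110-fold and 148-fold higher than that level. Ihh, the ligand of growing cartilage, had 0, 1 and 1 reads. It lay below 1 TPM by the test, at a difference of -0.84 on the log2(TPM + 1) scale in 3 of 3 libraries (limma, adjusted p = 0.0487). Ihh did not keep that call at a level of 0.5 TPM, without mitochondrially encoded genes or without any 1 of the replicates, and a filter on a mean of 0.5 TPM removes it. Dhh exceeded Ihh within each library by 6.25, 5.31 and 5.82 on that scale.

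**Figure D1:**
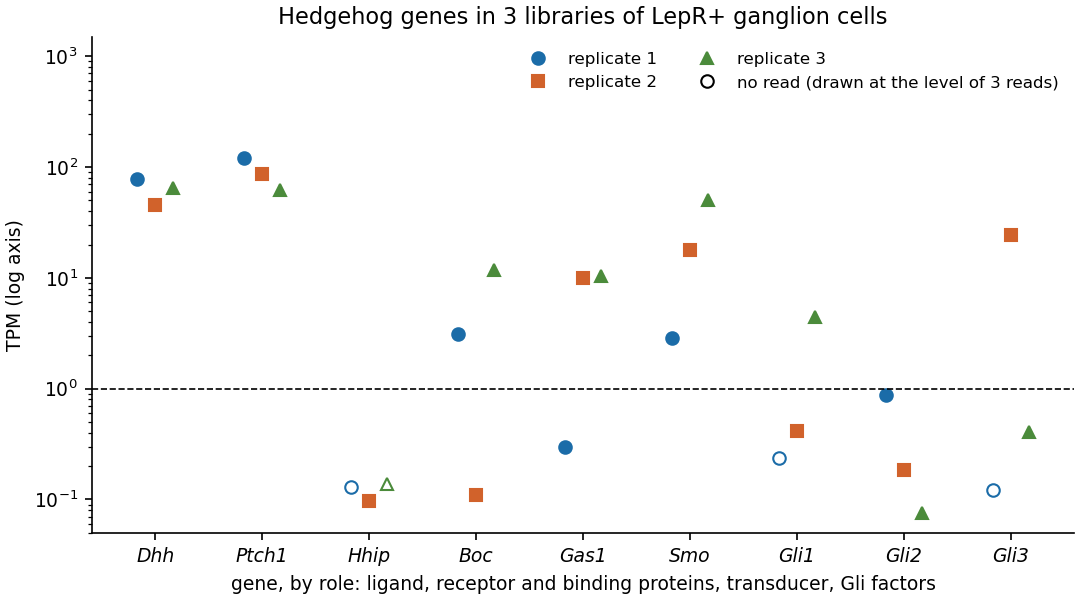
TPM on a log axis for the 9 hedgehog genes in each of the 3 libraries, ordered by role, with a dashed line at 1 TPM and open symbols for libraries without a read. Dhh and Ptch1 lie between 45.2 and 122 TPM in every library, while Boc, Gas1, Smo, Gli1, Gli2 and Gli3 spread over 1 or more decades between libraries.

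Ptch1 encodes Patched, the receptor that ligand silences. It had 122, 86.8 and 61.7 TPM in replicates 1, 2 and 3, from 4407, 3152 and 2093 reads, the most reads of the 9 genes. Its libraries differed by 1.97 times at most, with replicate 1 highest. Its mean of 90.0 ± 30.1 TPM (SD, n = 3) was among the top 6.94% of genes with a read and lay 5.45 ± 0.28 (SE) above 1 TPM on the log2(TPM + 1) scale, in 3 of 3 libraries (limma, adjusted p = 0.00455). Ptch1 (ENSMUSG00000021466.12) lies on chromosome 13, 63508328 to 63573598, on the minus strand, with 14185 exonic bases in 27 merged exons, and no exon of another gene overlaps them.

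Dhh and Ptch1 were the 2 of the 9 genes called above 1 TPM, where limma called 16.2% of all 27396 genes tested. Hhip was the 1 called below, against 13.6% of all genes, and the other 6 passed neither way. At least 1 TPM in each library was reached by 3 of the 9 genes, Dhh, Ptch1 and Smo, and by 23.7% of genes tested. The median of the 9 genes' means was 6.90 TPM, beside 1.15 TPM over all genes tested. Without replicate 1 or replicate 2 limma called 0 of the 9 either way and 0 of all genes. At an unadjusted p under 0.05, 4 and 2 of the 9 were then above and 2 and 1 below, beside 4646 and 4453 of all genes above and 7709 and 8053 below. Without replicate 3 it called Ptch1 above (adjusted p = 0.0358) and Hhip below (adjusted p = 0.0490), beside 2435 of all genes above and 4889 below, against 4428 and 3719 with all 3 libraries. For Dhh the adjusted p was then 0.0817, 0.0653 and 0.0511 without replicates 1, 2 and 3, with differences from 4.79 to 5.17 on the log2(TPM + 1) scale.

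Hhip encodes a membrane protein that binds hedgehog ligands and keeps them from Patched. It had 0, 2 and 0 reads in replicates 1, 2 and 3, and the 2 reads of replicate 2 (exact 95% Poisson interval 0.242 to 7.22 reads) were 0.0969 TPM. In the other libraries 3 reads would be 0.129 and 0.138 TPM. It was the lowest of the 9 genes, and its call below 1 TPM (difference -0.94 on the log2(TPM + 1) scale, in 3 of 3 libraries; limma, adjusted p = 0.0487) was close to the threshold. That call was lost without mitochondrially encoded genes (limma, adjusted p = 0.0770) and against a level of 0.5 TPM (adjusted p = 0.190), where 0 of all genes were called below in either setting (6225 and 817 at an unadjusted p under 0.05). It was also lost without replicate 1 and without replicate 2 (adjusted p = 0.0821 and 0.0712). Ptch1 exceeded Hhip by 6.92, 6.32 and 5.95 within the libraries on that scale.

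The co-receptors that present ligand to Patched were uneven between libraries. Boc, an immunoglobulin-family co-receptor, had 3.10, 0.110 and 11.9 TPM, from 35, 1 and 126 reads. It was high in replicate 3 and near nothing in replicate 2, where its 1 read lay under the level of 3 reads, 0.263 TPM. Gas1, a membrane-anchored co-receptor first known as a growth arrest gene, had 0.297, 10.1 and 10.3 TPM, from 2, 76 and 73 reads. Replicates 2 and 3 were alike for Gas1 and replicate 1 was low. Neither passed the test, with differences from 1 TPM of 0.96 for Boc and 1.45 for Gas1 in log2(TPM + 1), each above it in 2 of 3 libraries (limma, adjusted p = 0.423 and 0.260). Cdon, the close relative of Boc, had 24.7 and 0.722 TPM in replicates 1 and 2 and no read in replicate 3, where 3 reads would be 0.162 TPM. The highest of the 3 co-receptors was thus Cdon in replicate 1, Gas1 in replicate 2 and Boc in replicate 3, there close to Gas1. Gas1 shares 589 exonic bases with the antisense lincRNA Gm48488 in M21, and without a stated strand setting reads of the overlapping genes cannot be told apart.

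Smo encodes Smoothened, the transducer that Patched restrains. It had 2.87, 17.8 and 50.7 TPM in replicates 1, 2 and 3, from 41, 256 and 682 reads. Every library was above 1 TPM, and the highest was 17.7 times the lowest. Its mean was 23.8 ± 24.5 TPM (SD, n = 3), and the difference of 2.96 from 1 TPM on the log2(TPM + 1) scale did not pass the test (limma, adjusted p = 0.0836). It passed with a mean-variance trend in limma (adjusted p = 0.0183) and with a pseudocount of 0.1 (adjusted p = 0.0413). Ptch1 exceeded Smo by 4.98, 2.22 and 0.28 on that scale, so the receptor and the transducer were close in replicate 3 and far apart in replicate 1.

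The 3 Gli factors were low in most libraries, and a different one was highest in each. Gli1, an activator and itself a common target of the pathway, had no read in replicate 1, 0.411 TPM from 5 reads in replicate 2 and 4.45 TPM from 53 reads in replicate 3. Gli2, the main activator in many tissues, had 0.869, 0.185 and 0.0760 TPM, from 15, 3 and 1 reads, and stayed under 1 TPM throughout. Gli3, which acts mainly as a repressor when no ligand is present, had no read in replicate 1, 24.5 TPM from 601 reads in replicate 2 and 0.403 TPM from 9 reads in replicate 3. Where no read was found, 3 reads would be 0.235 TPM for Gli1 and 0.122 TPM for Gli3. The highest of the 3 was therefore Gli2 in replicate 1, Gli3 in replicate 2 and Gli1 in replicate 3. None passed the test, with differences from 1 TPM of -0.01 for Gli1, -0.58 for Gli2 and 0.73 for Gli3 in log2(TPM + 1) (limma, adjusted p = 0.991, 0.166 and 0.653). Gli1 shares 62 exonic bases with Arhgap9 and 265 with the antisense gene Gm47200, and Gli3 shares 188 with Gm6556; Arhgap9 had 0, 0 and 1 reads and Gm6556 had none.

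Ordered by mean log2(TPM + 1), the 9 genes ran Ptch1, Dhh, Smo, Gas1, Boc, Gli3, Gli1, Gli2 and Hhip. The ranges of every pair of neighbours in that order overlapped. Ptch1 and Dhh differed by 0.50 ± 0.52 (SD, n = 3) with Ptch1 higher in 2 of 3 libraries, a difference no larger than the spread. The order of Dhh over Smo, of Smo over Gas1 and of Gli2 over Hhip held in 3 of 3 libraries. For Gli2 over Hhip it rested on 3 against 2 reads in replicate 2 and 1 against 0 reads in replicate 3. Gas1, Boc, Gli3, Gli1 and Gli2 changed places among themselves from library to library.

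Of 10 pairs of related genes or steps of the relay, 5 had the same order in every library. They were Dhh over Shh, Dhh over Ihh, and Ptch1 over Smo, Hhip and Gli1. Ptch1 was higher than Gli1, which is often read as its fellow target, by 6.91, 5.96 and 3.52 on the log2(TPM + 1) scale in replicates 1, 2 and 3. The exact two-sided sign-flip permutation test over 3 libraries cannot give less than p = 0.25, which it gave for each of the 5, at 0.5 after adjustment over the 10 pairs. The other 5 pairs, Boc with Cdon, Boc with Gas1 and the 3 pairs of Gli factors, had mixed order, with mean differences between -1.31 and 0.57 and SDs from 1.63 to 3.22.

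**Figure D2:**
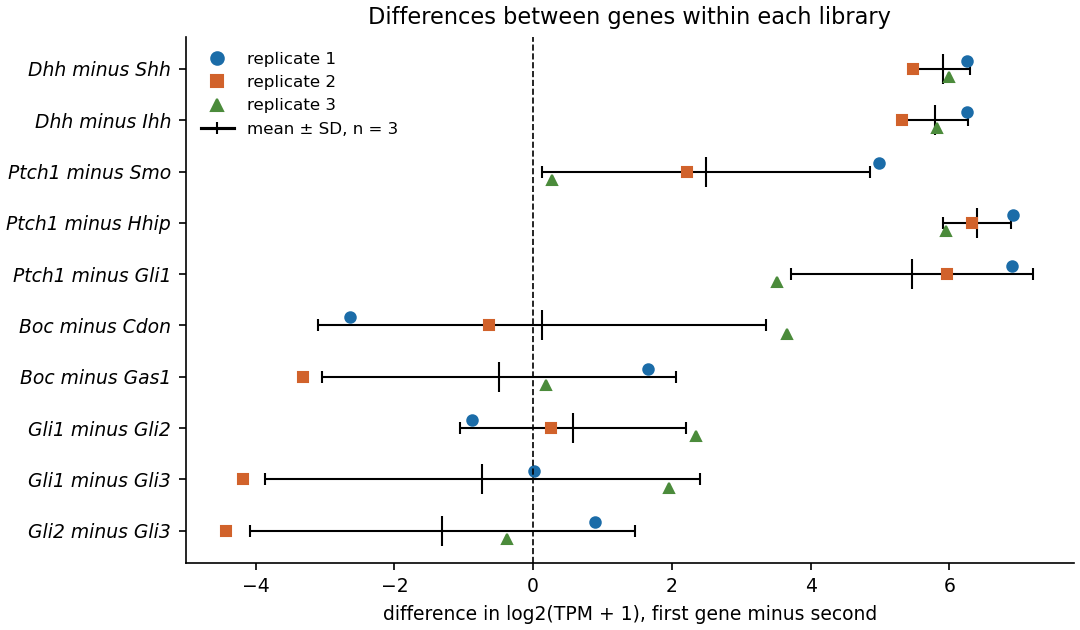
Difference in log2(TPM + 1) within each library for 10 pairs of genes, first gene minus second; symbols are libraries and the black bar is the mean ± SD (n = 3). The 5 pairs led by Dhh or Ptch1 lie right of 0 in all libraries, and the other 5 pairs have libraries on both sides.

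Dhh and Ptch1 varied less between libraries than did Smo, Gas1, Boc and Gli3. On the log2(TPM + 1) scale the SD was 0.39 for Dhh and 0.48 for Ptch1, against 1.88 for Smo, 1.80 for Gas1, 1.77 for Boc and 2.56 for Gli3. Those 6 genes had a mean of at least 5 TPM. Over the 10128 genes with such a mean the median SD was 1.72, with quartiles of 0.824 and 2.63. That set was not matched in level to Dhh and Ptch1. At means near that of Dhh, 59.9 and 63.9 TPM, the SD was 0.14 for Spop and 1.07 for Bcl2. A highest library at least 10 times the lowest was found for 4 of the 6, Smo, Gas1, Boc and Gli3, and for 53.6% of those 10128 genes, so such gaps were common in these libraries. No read in at least 1 library, as in Gli3, was found for 20.03% of those genes.

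**Figure D3:**
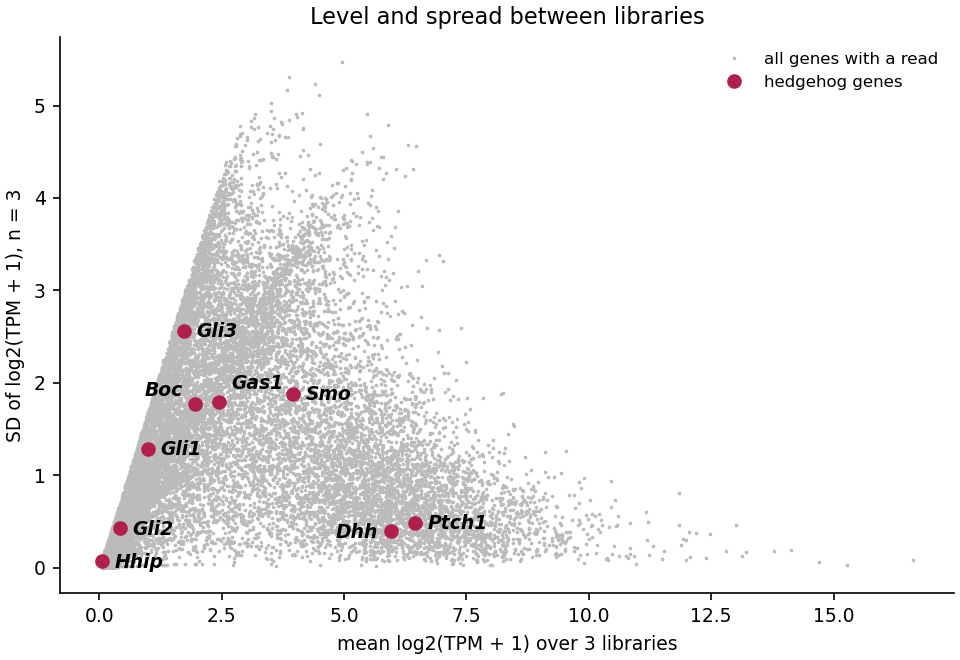
Mean and SD of log2(TPM + 1) over the 3 libraries, for all genes with a read in grey and the 9 hedgehog genes in red. Dhh and Ptch1 sit at high level and low spread (SD 0.39 and 0.48), and Gli3 has the widest spread of the 9 (2.56).

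The 5 genes that averaged 1 TPM or more and had a gap of at least 10 times, Smo, Gli1, Gli3, Boc and Gas1, were highest in replicate 3 in 4 cases and in replicate 2 for Gli3, and in replicate 1 in none. Among these, Gas1 was nearly level between replicates 2 and 3, at 10.1 and 10.3 TPM from 76 and 73 reads. Gli2, left out by its mean of 0.377 TPM, had a gap of 11.4 times and was highest in replicate 1, from 15 reads. Over all 7940 genes with such a gap and a mean of at least 1 TPM, 33.8% were highest in replicate 1, 38.7% in replicate 2 and 27.5% in replicate 3. Of the 9 perineurial markers with such a gap, 6 were highest in replicate 2, and of 16 other hedgehog genes 10 were. The summed macrophage markers also were 1.08 TPM in replicate 1 against 85.0 and 101 TPM in replicates 2 and 3, with Tyrobp, the highest, at 0, 33 and 120 reads and Adgre1, the lowest, at 1, 0 and 1. Different single genes weighed heavily in these sums. Cd68 had 61.0 TPM in replicate 2 and no read in the other libraries, and Tyrobp had 75.3 TPM in replicate 3. Csf1r had 3, 5 and 7 reads, while Ptprc and Lyz2 rose from replicate 1 to replicate 3. The summed mural markers were 496 TPM in replicate 1 against 349 and 134 TPM, with Rgs5, the highest, at 225, 124 and 33.8 TPM. Acta2, Pdgfrb and Cspg4, the lowest, fell in the same order. Mcam instead was highest in replicate 2, at 33.8, 150 and 45.3 TPM, and Abcc9 in replicate 3, at 21.1, 14.9 and 30.6 TPM. The part of macrophage or mural cells in the hedgehog values was not tested.

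The other hedgehog genes were followed through 46 genes in 5 lists. Of these, 12 lay above 1 TPM, 4 below and 26 passed neither way, and 4 had no read, beside 16.2% above and 13.6% below among all genes tested. Their median mean was 5.38 TPM. The 4 below, named after their values were seen, were Ihh, the ligand-releasing Scube1, the endocytic receptor Lrp2 and the transcription factor Foxl1. The 4 without a read were Shh, Scube2, which helps free the ligand from the cell, and the neural tube targets Nkx2-2 and Nkx6-1. For the last 3, 3 reads would be at most 0.302, 0.436 and 0.399 TPM in any library.

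**Figure D4:**
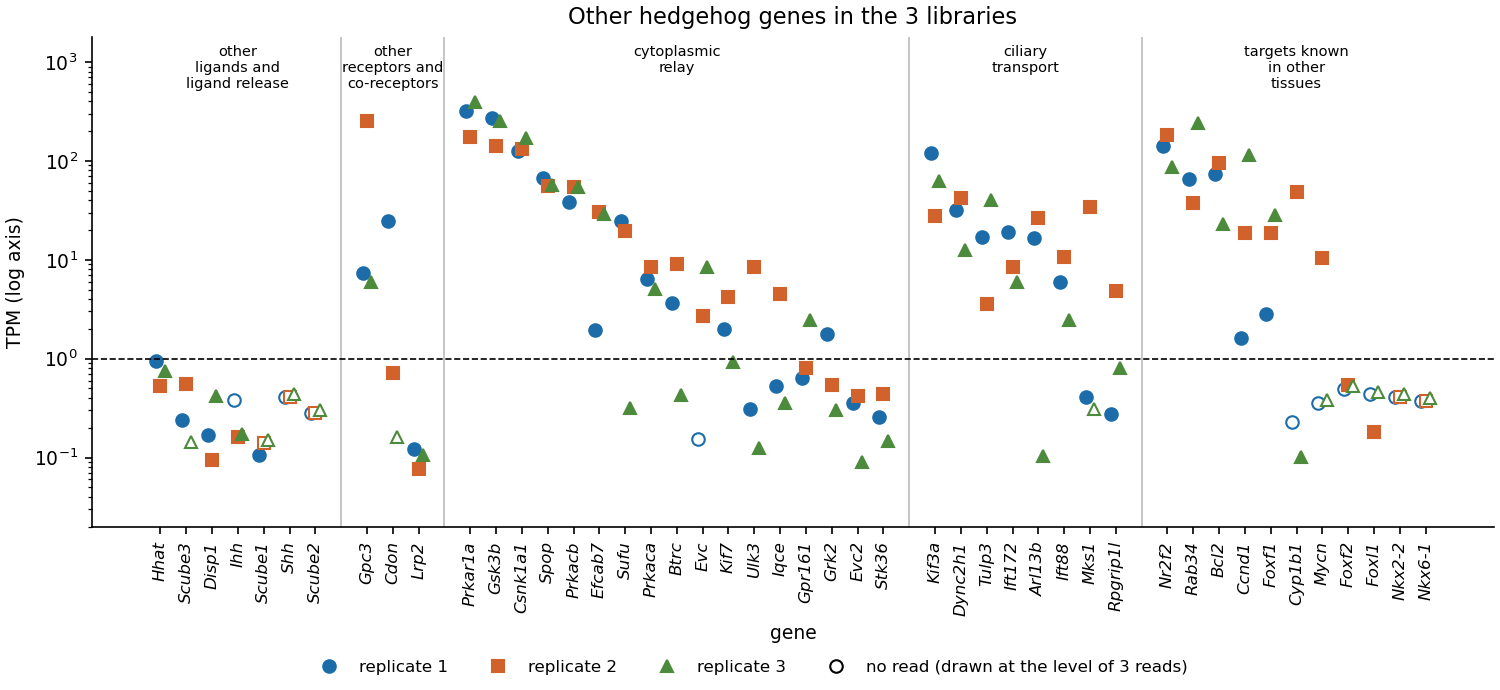
TPM on a log axis in each library for 46 other hedgehog genes in 5 lists, ordered by mean level within a list, with open symbols for libraries without a read and a dashed line at 1 TPM. Prkar1a, Gsk3b, Csnk1a1, Spop, Prkacb and Prkaca of the relay lie above 1 TPM in every library, while its kinase genes Ulk3, Grk2 and Stk36 do not, and the genes of other ligands and ligand release lie below it in every library.

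Among 17 genes of the cytoplasmic relay, 6 were above 1 TPM and 0 below by limma (2 below at an unadjusted p under 0.05). The shares among all genes tested were 16.2% above and 13.6% below. The 6 were genes of kinases and of Gli protein turnover that also serve many other pathways. Prkar1a, the regulatory subunit of protein kinase A, had 295 ± 110 TPM, and the catalytic subunits Prkacb and Prkaca had 48.9 ± 9.18 and 6.64 ± 1.74 TPM (SD, n = 3). Gsk3b and Csnk1a1, kinases that mark Gli proteins for cleavage after protein kinase A, had 222 ± 70.8 and 142 ± 23.5 TPM, and Spop, an adaptor for Gli degradation, had 59.9 ± 6.04 TPM. Each was above 1 TPM in 3 of 3 libraries, by 1.91 to 7.13 in log2(TPM + 1) (limma, adjusted p from 0.00336 to 0.0220). Sufu, the dedicated inhibitor that holds Gli proteins in the cytoplasm, had 24.6, 19.5 and 0.316 TPM and did not pass (difference 2.14; limma, adjusted p = 0.221), with replicate 3 far below the other libraries. Replicate 3 was the library in which Gli1 and Smo were highest, and a link between these values was not tested. It would rest on 1 library.

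Of 8 genes of ciliary transport, 3 were above 1 TPM and 0 below by limma (0 below at an unadjusted p under 0.05 too). Kif3a, a motor subunit that builds the cilium, had 119, 27.7 and 62.5 TPM, Dync2h1, the heavy chain of the return motor, had 31.8, 42.2 and 12.6 TPM, and Ift172, a cargo-train subunit, had 19.3, 8.52 and 5.89 TPM. They lay 4.91, 3.74 and 2.46 above 1 TPM on the log2(TPM + 1) scale, each in 3 of 3 libraries (limma, adjusted p = 0.0171, 0.0226 and 0.0487). None of these genes serves hedgehog signalling alone. Of 11 genes known as hedgehog targets in other tissues, 3 were above, 1 below and 2 had no read. Among all genes tested, 16.2% were above and 13.6% below. Whether these 11 genes follow hedgehog signalling in these cells was not tested. Nr2f2, a nuclear receptor of mesenchyme and veins, had 142, 181 and 86.7 TPM, Rab34, a small GTPase of early cilium assembly, had 65.5, 37.9 and 242 TPM, and Bcl2, a survival protein, had 72.9, 95.8 and 23.0 TPM. Each lay above 1 TPM in 3 of 3 libraries, by 6.04, 5.42 and 4.80 in log2(TPM + 1) (limma, adjusted p = 0.00439, 0.0242 and 0.0193), and the 3 did not share a highest library.

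Of the 7 genes of other ligands and ligand release, limma called 0 above 1 TPM and 2 below, and of 3 other receptors and co-receptors 0 above and 1 below. Of all genes tested 16.2% were above and 13.6% below. In both lists 0 were above at an unadjusted p under 0.05. In the second list Gpc3, named after its values were seen, had 7.31, 254 and 5.94 TPM in replicates 1, 2 and 3. It was thus above 1 TPM in 3 of 3 libraries without passing the test (limma, adjusted p = 0.129). No gene of the first list reached 1 TPM in all libraries, while Dhh had a mean of 62.7 TPM. Besides Shh and Ihh the list holds Hhat, whose enzyme attaches palmitate to hedgehog ligands, and Disp1 and the Scube genes, which act in ligand release.

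By distance in log2(TPM + 1) over the 3 libraries, the named genes most like Dhh were Cab39, a scaffold of the kinase LKB1, at a distance of 0.0395, the transcription factor Maf at 0.168 and the protocadherin Pcdh10 at 0.174. Cab39 had 79.6, 45.7 and 65.7 TPM in replicates 1, 2 and 3. Those most like Ptch1 were Idh3b, a subunit of a mitochondrial isocitrate dehydrogenase, at 0.0408, the autophagy gene Rb1cc1 at 0.0973 and Lhfpl2 at 0.110. With 3 libraries of 1 group, such likeness is mainly one of level.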

How the data were processed

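The authors deposited log2 TPM per gene for 3 libraries, whose linear values sum to 1000000 in each library. The tools were STAR and featureCounts and the build mm10 (GRCm38), per the submitters' processing notes. No version, annotation release or strand setting is given there, nor the step to TPM. Per the labels' protocols, libraries were made by a modified Smart-Seq2, which amplifies cDNA by PCR, so intervals and floors cover counting error only.

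The values fit whole reads with 0.25 read added to each gene, divided by exonic length. With lengths from GENCODE M21, all 49035 genes with the same versioned ID came out whole within 0.02 of a read. Reads were recovered for 49791 genes with an M21 length and for 2758 more, Dhh among them, with a length solved from the values (within 0.002 of a read, or a slightly wider relative limit for large counts), and not for 1. Libraries without a read are given as reads, with the level of 3 reads. Means, SDs and tests use the deposited values.

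The mean of log2(TPM + 1) over libraries was set against that of a gene at 1 TPM by limma's moderated two-sided test (limma 3.58.1 in R 4.3.3, 1.20 prior degrees of freedom, Benjamini-Hochberg over 27396 genes with a read, threshold 0.05). A check on simulated data covered only genes at or above the tested level and left out small spreads. Calls below 1 TPM, such as that of Hhip, were not covered by it. SEs are SD over the square root of n. This scale compresses differences among low genes. One gene of the planned lists is not reported here. Pairs used exact sign-flip tests within libraries. Named genes were all 9 members, other hedgehog genes called above 1 TPM or without a read, Shh, Ihh, Cdon and Sufu, the 3 genes nearest each member called above, and the highest and lowest marker of a list. Further macrophage and mural markers were named after their values were seen. Members and lists were chosen with earlier results of these data known, so patterns already seen gain no independent support. Replicates are labelled biological; whether they share animals is not stated. Alternatives were other pseudocounts, filters, levels, scalings, a variance trend and leaving out each replicate. Python 3.11.15, numpy 2.4.6, pandas 2.3.3, scipy 1.17.1 and matplotlib 3.10.9 were used.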

Additional observations from a re-analysis of the deposited data

How the results depend on the processing

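Of 223 values recomputed under 12 other settings, 178 were counted as the same. For the level of a gene this meant the same direction and the same side of the threshold, and for a pair the same direction only. For a count of called genes it meant an equal or similar count. The 178 thus include counts that moved, such as members above 1 TPM from 2 to 3 and other hedgehog genes from 12 to 16 with a pseudocount of 0.1. Leaving out each replicate in turn gave 0 to 1 members above 1 TPM and 0 to 1 below, and 0 to 9 and 0 to 2 of the other hedgehog genes. The differences from 1 TPM then ran from 4.79 to 5.17 for Dhh, 5.21 to 5.70 for Ptch1, 2.09 to 3.96 for Smo, -0.98 to -0.93 for Hhip, -0.74 to 0.47 for Gli1, -0.82 to -0.43 for Gli2, -0.75 to 1.58 for Gli3, 0.09 to 1.86 for Boc and 0.92 to 2.49 for Gas1. Mean differences ran from -1.64 to 1.52 for Boc minus Cdon, -1.57 to 0.92 for Boc minus Gas1, -0.31 to 1.30 for Gli1 minus Gli2, -2.08 to 0.99 for Gli1 minus Gli3 and -2.41 to 0.25 for Gli2 minus Gli3. With fewer libraries, fewer degrees of freedom remain.

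The count of members below 1 TPM was 0 with a mean of at least 0.5 TPM required, at a level of 0.5 TPM and without mitochondrially encoded genes, and 2 (Gli2 and Hhip) at a level of 2 TPM and with a mean-variance trend. For the other hedgehog genes below it was 0, 0 and 0 in the first 3 settings, 10 and 9 in the last 2, and 12 with no filter, which adds genes without a read. Calls below among all genes moved likewise, from 3719 to 15, 0 and 0, to 10962 and 9648, and to 29850 with no filter. Smo passed at 3.66 with a pseudocount of 0.1 and at 2.96 with a trend, and Gli2 at -1.17 at 2 TPM and -0.58 with a trend. Hhip missed at -0.53 at 0.5 TPM and -0.93 without mitochondrially encoded genes. Gli1, at the tested level, turned to 0.41, 0.12 and 0.11 at 0.5 TPM, without mitochondrially encoded genes and with quantile normalization. A changed level moves the difference of every gene by the same fixed amount, so those moves follow from the setting. At 0.5 TPM the median difference of all genes thus went to 0.31. The causes of the other changes were not tested. Leaving out mitochondrially encoded genes moved the median difference of all genes from -0.11 to 0.03. No paired analysis was possible because there was 1 group. Depth limits Shh, Ihh and Hhip, where single reads decide the value.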
